A study of Homo sapiens with 9 samples.

Results

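A set of 10 genes of the intermediate filament network was followed across the gene counts of 786-0 cells, out of 58735 gene identifiers in the deposited table. They were the keratins KRT7, KRT8, KRT18 and KRT19, vimentin (VIM), filaggrin (FLG), the plakins epiplakin (EPPK1), plectin (PLEC) and desmoplakin (DSP), and plakoglobin (JUP). The genes were picked with results of these same libraries known, so their fold changes and calls are given as a description and no p-value is attached to them. 786-0 is an established line of clear cell renal cell carcinoma (ccRCC) that lacks functional VHL and expresses HIF2α but not HIF1α, so every group shared the loss of VHL. RNA was sequenced from 3 groups with 3 replicates each: untreated 786-0 WT cells, WT cells that received PT2385 at 10 μM over 48 h, and 786-0 cells with a hif2a KO genotype (HIF2α KO). All were grown in normoxia (21% O2) for 48 h in DMEM with 5 mM glucose and 10% FBS. PT2385 is a small molecule that binds HIF2α and blocks its pairing with ARNT, the partner it needs to bind DNA. How the KO line was made, and whether it is 1 clone, is not given in the sources used here. The labels do not say that replicates came from separate cultures, so p-values measure only the spread between these libraries, which may be technical. Gene positions are those of GENCODE v44 on GRCh38.

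Intermediate filaments are assembled from proteins that differ by cell type. Simple epithelia such as the renal tubule build them from the type II keratin KRT8 paired with the type I keratins KRT18 or KRT19, whereas mesenchymal cells use vimentin, and ccRCC cells commonly carry both. Plakins are giant linkers that tie these filaments to junctions and to the rest of the cytoskeleton. Desmoplakin anchors keratins at desmosomes, plectin serves hemidesmosomes and many other sites, and epiplakin binds keratins and vimentin. Plakoglobin is an armadillo-repeat protein shared by desmosomes and adherens junctions. Filaggrin is best known from the cornified layer of the epidermis, where it bundles keratin filaments.

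The 250 bases before the RefSeq start of FLG and of VIM are shown because FLG was the abundant member that stood apart most between groups and VIM the most abundant member and the one that varied least. The FLG window is chr1:152325240-152325489 on the minus strand and the VIM window is chr10:17227991-17228240 on the plus strand, both in GRCh38.p14 and both written 5′ to 3′ in the direction of the gene. Capitals mark 2 searched words, the core of the HIF response element (ACGTG or GCGTG, either strand) and the TATA box word TATAAA.
FLG: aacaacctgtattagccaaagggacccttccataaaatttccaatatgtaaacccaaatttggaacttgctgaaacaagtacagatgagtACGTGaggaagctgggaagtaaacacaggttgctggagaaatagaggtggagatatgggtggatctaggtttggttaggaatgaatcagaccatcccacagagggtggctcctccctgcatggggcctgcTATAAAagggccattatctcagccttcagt
VIM: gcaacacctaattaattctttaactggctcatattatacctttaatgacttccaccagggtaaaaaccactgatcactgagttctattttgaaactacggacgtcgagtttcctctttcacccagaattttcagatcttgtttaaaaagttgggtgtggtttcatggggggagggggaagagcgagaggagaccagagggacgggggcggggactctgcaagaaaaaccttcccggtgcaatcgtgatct
The FLG window held ACGTG starting 160 bases before the start and TATAAA starting 30 bases before it, and the VIM window held neither word. Of all 35116 windows of this length in the RefSeq table, 43.2% held a HIF core and 10.7% held TATAAA. Of the other members, only JUP, DSP and KRT8 were searched. EPPK1 and PLEC were left out of the search, and KRT7, KRT18 and KRT19 had no window in the RefSeq table. A core was found in each of 2 annotated windows of JUP, 176 and 44 bases before their starts. The windows of DSP and KRT8 held none. The windows of DSP and KRT8 and 1 of JUP lie inside the GENCODE gene and the other of JUP lies partly inside it, so their RefSeq starts are internal to those genes. These matches describe the letters only.

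The targeted gene matched its labels. EPAS1, which encodes HIF2α, stood at 256 ± 20.0 CPM (SD, n = 3) in untreated cells, 239 ± 16.9 CPM upon PT2385 treatment and 22.1 ± 2.52 CPM in HIF2α KO cells, a log2 fold change of -3.52 in KO (edgeR adjusted p = 2.15e-09). Here CPM are normalized read counts, scaled to the size of each library and its TMM factor. Total counts ran from 11881000 to 14730081 per library. Of 8 renal markers 7 were counted in every group, with CA9 at 0 in all, and their summed level was 1378 to 1396 CPM in untreated, 1380 to 1460 CPM in PT2385 and 1400 to 1616 CPM in KO libraries. Of these, CDH6 was higher with PT2385 and in KO, by 1.38 and 1.03 on the log2 scale, and PAX2 was lower in KO (log2 -1.30). With PT2385, CD70 fell by 0.35 and PAX2 fell by 0.44 on the log2 scale, the PAX2 call being kept in 1 of 6 fits that left out a library. Squamous markers summed to 10.97 to 14.8, 12.2 to 13.8 and 10.9 to 13.9 CPM in the same order, almost wholly KRT10, and KRT5, KRT14, KRT1, TP63 and IVL were at 0 to 2 counts. Of the blood cell genes, PTPRC had at most 1 count in a library, CD3E had 0 in all and CD14 had 0 to 18. Endothelial and fibroblast markers summed to 3.53 to 4.35, 4.20 to 5.54 and 2.20 to 4.30 CPM, with PECAM1, VWF and DCN at 0, and PDGFRB had 23 to 37 counts in WT libraries against at most 2 in KO. LUM, also of this list, was higher in KO, with 15, 15 and 22 counts in untreated cells, 29, 37 and 31 with PT2385 and 43, 60 and 31 in KO. The part of these shifts in the results was not tested.

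Across the 10 genes, 9 passed the filter on low counts in each comparison and KRT7 did not. Genes with an edgeR adjusted p under 0.05 are referred to as called. Upon PT2385 treatment 4 members were called, KRT8, KRT18 and EPPK1 higher and FLG lower, where 7.70% of the 15089 tested genes were called (3.08% higher, 4.62% lower). That fit held no term for the replicate number, although the numbers paired the PT2385 and untreated libraries. With the number as a block 6 members were called, KRT19 and VIM in addition, while calls over all genes went from 1162 to 2305. In KO against untreated cells 6 members were called, KRT8, KRT18, FLG and JUP higher and EPPK1 and DSP lower, where 30.1% of the 15192 tested genes were called (14.7% higher, 15.4% lower). DSP and EPPK1 passed the filter in that comparison only through the untreated libraries. The 3 untreated libraries served both comparisons, so the fold changes against them are not independent of each other. In KO directly against PT2385 the same 6 genes were called in the same directions, where 18.8% of 15402 tested genes were called (8.47% higher, 10.3% lower). There DSP passed the filter only through the PT2385 libraries and EPPK1 mostly through them, with 1 KO library at the cutoff. The calls of the members were made by the contrasts that picked the genes, so nothing is read from how many were called. Fits that left out a library reuse the same libraries. A call kept in them is therefore no independent support, and shows only how far it hung on single libraries.

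**Figure D1:**
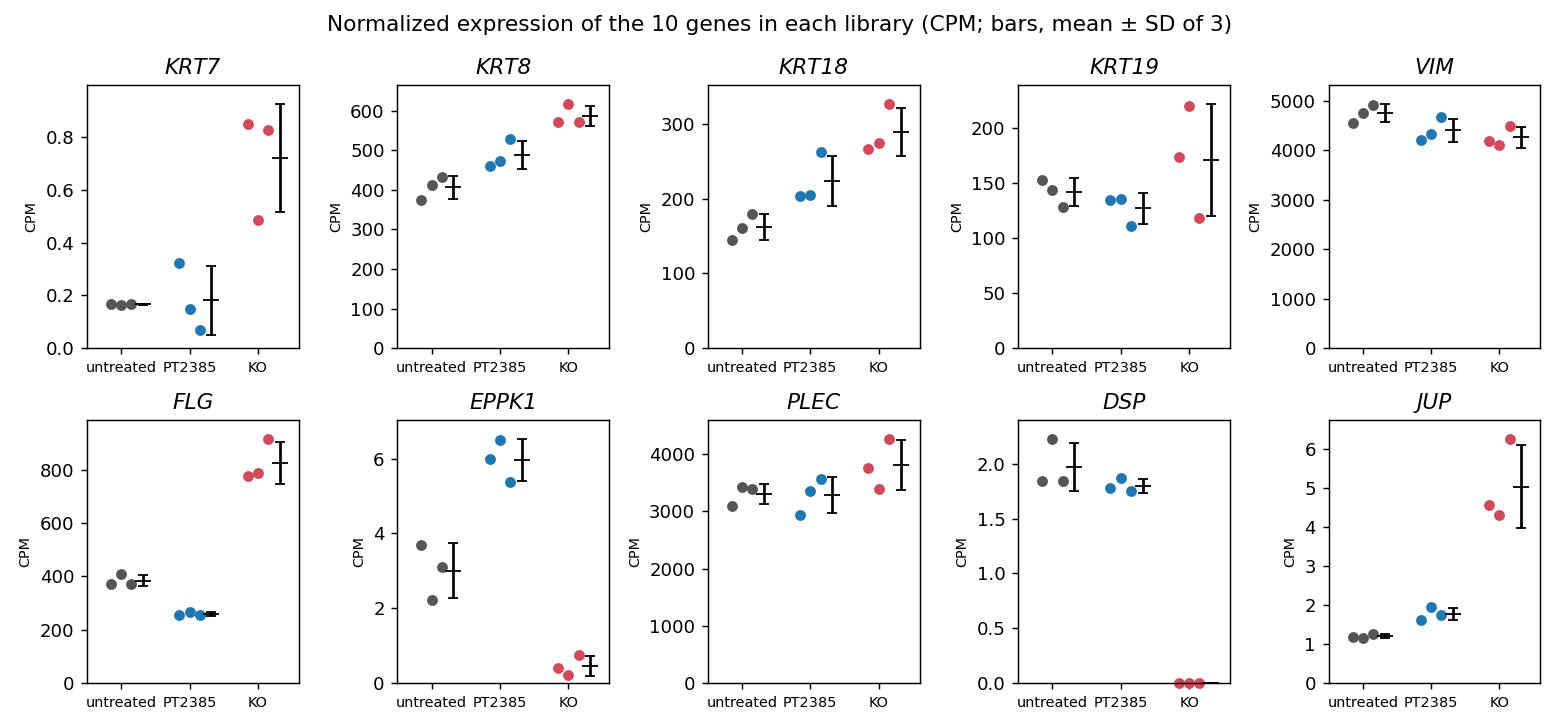
Normalized expression of each of the 10 genes in CPM (vertical axes, each starting at 0 with its own scale) in the 9 libraries; points are libraries 1 to 3 of untreated, PT2385 and KO cells from left to right, and the bar beside them is the mean ± SD of 3. FLG lies at 253 to 265 CPM in PT2385, 371 to 409 CPM in untreated and 775 to 915 CPM in KO libraries, DSP is at 0 in the 3 KO libraries, and VIM spans 4101 to 4919 CPM over all libraries.

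KRT8 and KRT18, partners in simple epithelial filaments, were both above untreated cells upon PT2385 treatment and higher again in KO. KRT8 (ENSG00000170421, chr12:52897187-52949954, minus strand, 8 exons) was measured at 375, 412 and 432 CPM in untreated cells, 461, 473 and 528 CPM with PT2385, and 572, 615 and 572 CPM in KO. All 3 groups were separate, in the order untreated, PT2385, KO. Because RNA was taken from whole cultures, more RNA in every cell and more cells with that RNA cannot be told apart, here and for every gene that follows. The log2 fold change was 0.26 ± 0.0698 (SE) with PT2385 and 0.54 ± 0.0653 in KO, that is 1.20-fold and 1.46-fold, and KO exceeded PT2385 by 0.26 ± 0.0707. With PT2385 the KRT8 call was kept in only 1 of 6 fits that each left out a library, the fit without PT2385 replicate 1, with log2 fold changes of 0.20 to 0.31, whereas the KO call was kept in 6 of 6.

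KRT18 (ENSG00000111057, chr12:52948871-52952906, plus strand, 7 exons) was at 145, 161 and 179 CPM in untreated cells, 204, 205 and 262 CPM with PT2385, and 267, 274 and 326 CPM in KO. The groups were again separate in the same order, PT2385 replicate 3 lying just under the lowest KO library. KRT18 was 1.38-fold higher with PT2385 (log2 0.47 ± 0.103) and 1.81-fold higher in KO (log2 0.85 ± 0.0923). Its PT2385 call was lost without untreated replicate 1 or 2, and the KO call was kept in 6 of 6 such fits. Against PT2385, KO was higher by 0.37 ± 0.110 on the log2 scale, a call that was kept in 1 of 6 of them, without PT2385 replicate 3, while that of KRT8 was kept in 2 of 6, without PT2385 replicate 3 or KO replicate 3.

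The ratio between the partners was also followed. KRT18 had 0.397 ± 0.0161 counts for each KRT8 count in untreated cells, 0.457 ± 0.0343 with PT2385 and 0.494 ± 0.0664 in KO (SD, n = 3). KRT8 and KRT18 lie head to head on opposite strands and share 525 exon bases, 17.1% of the KRT18 exons and 7.63% of those of KRT8. The strand setting of the counting is not given, so reads in that stretch cannot be split between them. Both genes also have many processed copies: 21 of 51 KRT8 pseudogenes and 24 of 67 KRT18 pseudogenes held a count. Their sums per library came to 2.87 to 5.76% of KRT8 and 3.30 to 8.21% of KRT18.

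KRT19, a type I keratin without a tail domain that can also pair with KRT8, was not called in either comparison with untreated cells. KRT19 (ENSG00000171345, chr17:41523617-41528308, minus strand, 6 exons) was at 153, 143 and 128 CPM in untreated cells, 134, 135 and 111 CPM with PT2385, and 174, 219 and 118 CPM in KO. The KO libraries were widely spread and spanned the other groups, with KO replicate 3 below all untreated libraries. The log2 fold change was -0.16 ± 0.0899 with PT2385 and 0.28 ± 0.172 in KO. With the replicate block the PT2385 difference was called at -0.16, and without KO replicate 3 the KO difference was called at 0.49. It was also called in KO with no filter on low counts and all libraries kept.

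KRT7, a type II keratin of glandular and ductal epithelia that is usually scant in ccRCC, was at the limit of detection. KRT7 (ENSG00000135480, chr12:52232520-52252186, plus strand, 9 exons) had 2, 2 and 2 counts in untreated cells, 4, 2 and 1 with PT2385, and 11, 7 and 12 in KO. Every KO library lay above every WT library. Over each group 30 counts in KO stood against 6 in untreated cells, a depth-scaled ratio of 4.30 with a 95% exact interval of 1.76 to 12.6 that covers counting error only. Against PT2385 the ratio was 4.10 (1.76 to 11.1).

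Few other keratins were transcribed. Of 54 keratin genes, 28 type I and 26 type II, 29 had no count in any library and 18 averaged under 10 counts. The 7 others were KRT8, KRT18, KRT19, KRT80, KRT10, KRT15 and KRT79. Summed per kilobase of exon, all keratins came to 225 ± 6.88 CPM per kb in untreated cells, 251 ± 10.9 with PT2385 and 313 ± 14.5 in KO. KRT8, KRT18, KRT19 and KRT80 made up 94.1%, 94.9% and 95.9% of these sums.

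VIM, the type III filament protein of mesenchymal cells, was the most abundant member in every group. VIM (ENSG00000026025, chr10:17228241-17237593, plus strand, 10 exons) was at 4558, 4761 and 4919 CPM in untreated cells, 4215, 4328 and 4669 CPM with PT2385, and 4188, 4101 and 4496 CPM in KO. The KO libraries all lay below the untreated ones, while PT2385 replicate 3 lay inside the untreated range. The log2 fold change was -0.11 ± 0.0527 with PT2385 and -0.14 ± 0.0551 in KO, and neither was called. The PT2385 value was called with the replicate block, at -0.11, and the KO value without KO replicate 3, at -0.18. The KO value was also called in 3 of 6 other settings that kept all libraries, among them the replicate block (-0.14). VIM took 0.471% ± 0.0152 of all counts in untreated cells, 0.443% ± 0.0206 with PT2385 and 0.424% ± 0.0175 in KO.

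The level of VIM relative to all keratins, both per kilobase, was 4.08 ± 0.0872 in untreated cells, 3.39 ± 0.0399 with PT2385 and 2.64 ± 0.225 in KO (SD, n = 3). The ratio contains KRT8 and KRT18, which were among the genes picked, so it is a description too. VIM shares 12.7% of its exon bases with VIM-AS1 on the other strand, a gene with 1359 counts in all 9 libraries.

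FLG moved in opposite directions in the 2 comparisons with untreated cells. FLG (ENSG00000143631, chr1:152302165-152325239, minus strand, 3 exons, of which exon 3 holds 12583 bases or 98.4% of the transcript) was at 371, 409 and 372 CPM in untreated cells, 255, 265 and 253 CPM with PT2385, and 775, 788 and 915 CPM in KO. The 3 groups were far apart, PT2385 lowest and KO highest. FLG was 1.49-fold lower with PT2385 (log2 -0.58 ± 0.0599) and 2.17-fold higher in KO (log2 1.12 ± 0.0751). Directly, KO exceeded PT2385 by 3.20-fold (log2 1.68 ± 0.0765), and all 3 calls were kept in 6 of 6 fits that left out a library.

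Few genes of the epidermal setting of FLG had enough counts to be tested. Of the related S100-fused genes of the same chromosome 1 cluster, FLG2, HRNR, TCHHL1, RPTN and CRNN had 0 counts in all 9 libraries and TCHH at most 3 in a library. Of 17 genes of the cornified envelope and of filaggrin processing, 9 had a count. In KO against untreated cells 3 were tested and 1 of them called, where 30.1% of all tested genes were called. The cornified envelope genes IVL, LORICRIN, SPRR1A, SPRR1B, SPRR2A and SPRR2D and the terminal differentiation genes TGM3 and CASP14 were also at 0. TGM1, a transglutaminase, had 10 to 21 counts in every library and TGM5 had 1 to 18. BLMH, a protease that breaks down filaggrin, was counted at 673 to 992, and it was lower in KO than with PT2385 (log2 -0.33, edgeR adjusted p = 0.00579).

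Because FLG shares 1587 exon bases, 12.4% of its exons, with the antisense transcript FLG-AS1, the 2 were compared. FLG-AS1 was at 16.0 ± 2.54 CPM in untreated cells, 13.3 ± 4.16 CPM with PT2385 and 8.48 ± 1.34 CPM in KO, a fall by 0.91 on the log2 scale in KO (edgeR adjusted p = 0.00127) while FLG was higher. There were 24.4 ± 4.34 FLG counts for each FLG-AS1 count in untreated cells, 21.0 ± 7.30 with PT2385 and 99.8 ± 24.6 in KO. FLG counts thus far exceeded those of the overlapping gene in every group.

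Of the plakins, PLEC was abundant and moved little. PLEC (ENSG00000178209, chr8:143915153-143976734, minus strand, 32 exons) was at 3103, 3420 and 3390 CPM in untreated cells, 2945, 3357 and 3567 CPM with PT2385, and 3757, 3400 and 4266 CPM in KO. The PT2385 libraries spanned the untreated ones, and KO replicate 2 lay within the untreated range. The log2 fold change was -0.01 ± 0.0687 with PT2385, with a sign that turned under library size scaling (0.01), and 0.22 ± 0.0777 in KO. Neither was called, though the KO value was called at 0.29 without KO replicate 2. It was also called in 3 of 6 other settings that kept all libraries, among them the replicate block (0.21).

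EPPK1, which binds keratins and is encoded by a single long coding exon, moved in opposite directions at a low level. EPPK1 (ENSG00000261150, chr8:143857324-143878467, minus strand, 2 exons, of which exon 2 holds 15975 bases or 99.8% of the transcript) had 44, 27 and 37 counts in untreated cells, 74, 87 and 77 with PT2385, and 5, 3 and 11 in KO. In CPM these were 3.69, 2.23 and 3.10, then 5.98, 6.51 and 5.39, then 0.387, 0.208 and 0.757. No library of any group lay within the range of another. EPPK1 was 1.97-fold higher with PT2385 (log2 0.98 ± 0.203), 6.45-fold lower in KO (log2 -2.69 ± 0.393), and 12.9-fold lower in KO than with PT2385 (log2 -3.69 ± 0.320). The PT2385 call was lost without PT2385 replicate 2 (log2 0.91) or without untreated replicate 2 (log2 0.81), and the KO values were -3.30 to -2.34 against untreated cells when a library was left out. All KO libraries lay under the low count cutoff of that comparison, so EPPK1 entered it only through the untreated libraries, where it was higher.

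DSP, the desmosomal anchor of keratins, was counted in all WT libraries and in none of KO. DSP (ENSG00000096696, chr6:7541338-7586714, plus strand, 24 exons) had 22, 27 and 22 counts in untreated cells, 22, 25 and 25 with PT2385, and 0, 0 and 0 in KO. The counts with PT2385 lay within the range of the untreated counts, and the difference was not called (log2 -0.14 ± 0.241). Against a floor of 3 counts per library, DSP was at least 9.15-fold lower in KO than in untreated cells and at least 8.35-fold lower than with PT2385.

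JUP, the plakoglobin gene, went the other way from DSP in KO. JUP (ENSG00000173801, chr17:41754604-41786931, minus strand, 14 exons) had 14, 14 and 15 counts in untreated cells, 20, 26 and 25 with PT2385, and 59, 62 and 91 in KO. In CPM these were 1.18, 1.15 and 1.26, then 1.62, 1.95 and 1.75, then 4.56, 4.30 and 6.26. The groups did not overlap and stood in the order untreated, PT2385, KO. In KO, JUP exceeded untreated cells 4.24-fold (log2 2.08 ± 0.242) and PT2385 2.84-fold (log2 1.504 ± 0.227), both kept in 6 of 6 fits. The PT2385 difference of 0.56 ± 0.266 was not called. Of the 9 tested members, the groups did not overlap for 5 with PT2385, 7 in KO and 6 between KO and PT2385, where 26.1%, 43.8% and 35.4% of tested genes did not overlap. KRT7, not tested, was in addition higher in every KO library.

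**Figure D2:**
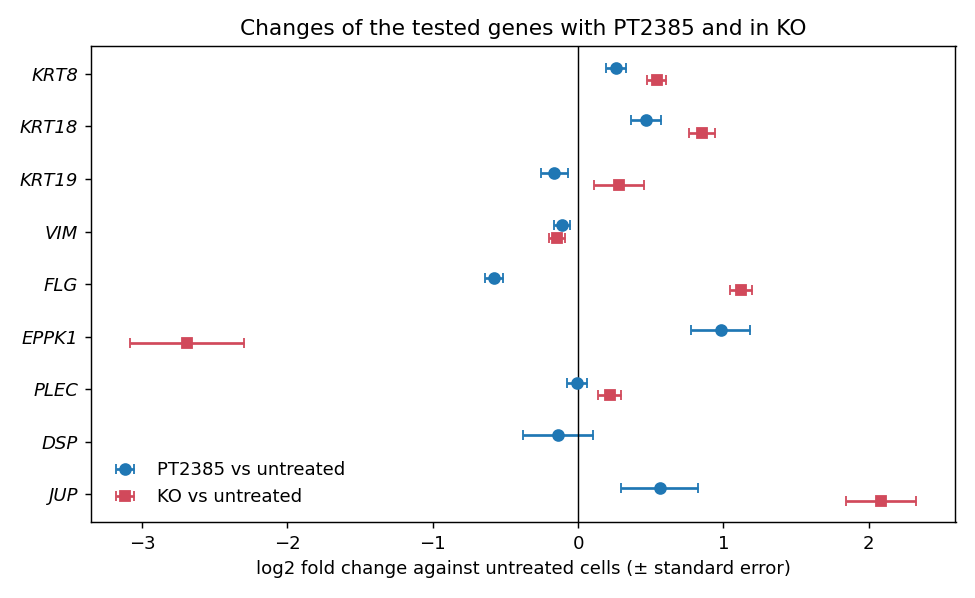
Log2 fold change (horizontal axis, ± SE) of each tested gene against untreated cells with PT2385 (circles) and in KO (squares). FLG is at -0.58 with PT2385 and 1.12 in KO and EPPK1 at 0.98 and -2.69, on opposite sides of 0, while KRT8, KRT18 and JUP lie on the right of 0 in both; KRT7, which was not tested, and DSP in KO, where it had 0 counts, are not drawn.

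Levels of different genes were set against each other per kilobase of exon. The count ratios given above, such as KRT18 to KRT8 and FLG to FLG-AS1, carry no correction for length. In untreated cells VIM stood at 917 ± 34.9 CPM per kb, PLEC at 194 ± 10.3, KRT19 at 60.5 ± 5.36, KRT8 at 59.1 ± 4.21, KRT18 at 52.6 ± 5.67 and FLG at 30.0 ± 1.69. JUP at 0.242 ± 0.0109, EPPK1 at 0.188 ± 0.0461, DSP at 0.145 ± 0.0162 and KRT7 at 0.0417 ± 0.0004 followed far below. The 6 abundant members were thus separated from the other 4 by a wide gap. The neighbours KRT19, KRT8 and KRT18, and the neighbours JUP, EPPK1 and DSP, differed by less than the sum of their SDs.

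With PT2385, KRT18 was at 72.9 and KRT8 at 70.8 CPM per kb, within their spread of each other, above KRT19 at 54.2, and EPPK1 at 0.372 was level with JUP at 0.358. In KO, KRT18 stood at 94.1 ± 10.5, KRT8 at 85.2 ± 3.66, KRT19 at 72.9 ± 21.7 and FLG at 64.5 ± 6.06 CPM per kb, and each differed from the next by less than the sum of their SDs. FLG lay below KRT18 and KRT8 by more than the sum of their SDs, and within that spread only of KRT19. JUP was at 1.02 and EPPK1 at 0.0282 CPM per kb in KO. The order of the keratins depends on the length used. With the longest transcript as length, KRT8 stood above KRT18 in every group, at 170 against 107 CPM per kb with PT2385 and 205 against 138 in KO, and KRT19 was at 122.5 in KO. FLG, whose length is the same by either measure, then lay far below all 3 keratins at 64.5 CPM per kb in KO.

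**Figure D3:**
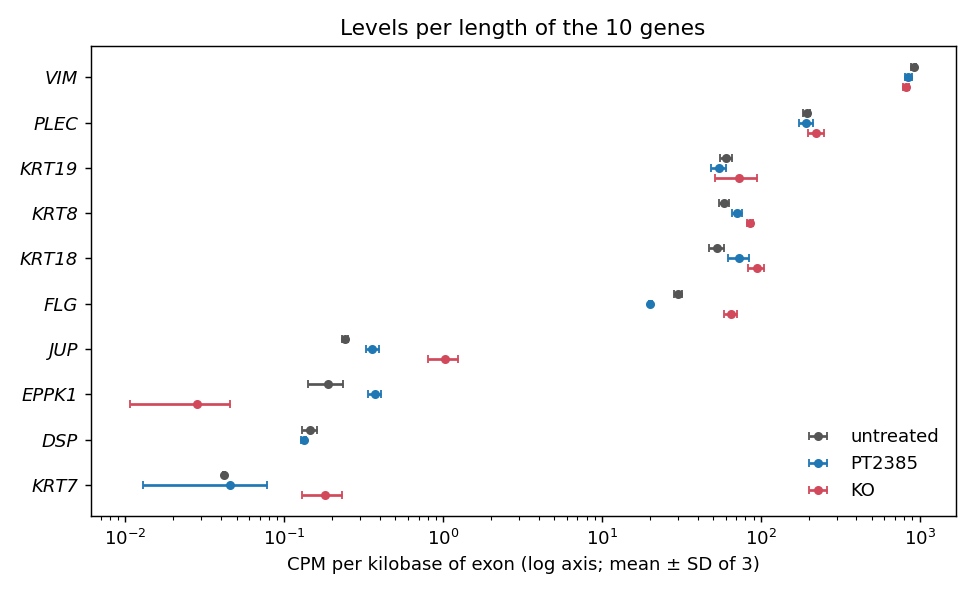
Mean level per kilobase of exon (CPM per kb, log axis) ± SD of 3 libraries for the 10 genes, ordered by the level in untreated cells, for untreated, PT2385 and KO cells. VIM is highest at 917 CPM per kb in untreated cells, 6 genes lie at 20.2 CPM per kb or above in every group, and the 4 others at 1.02 or below; DSP in KO is at 0 and cannot be drawn on a log axis.

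The wider families of these genes, listed by name but with earlier results of these data known, held 112 genes beside the members. Of these, 63 had a count. Adjusted p-values of list genes are therefore given as a description. Upon PT2385 treatment 1 of 28 tested genes passed (edgeR adjusted p under 0.05), namely SYNM, where 7.70% of all tested genes were called. The median log2 fold change of the 28 was 0.05 against 0.00 over all genes tested. With the replicate block 5 passed, ITGA6, CDH2 and SYNM higher and DST and CTNNA1 lower, while calls over all genes rose too. In KO against untreated cells 9 of 28 were higher, 7 lower and 12 not called, with a median of -0.03 against 0.00. The 16 of 28 called stand beside 30.1% over all genes and are given as a count without a test. Directly between KO and PT2385, 7 of 29 were higher, 7 lower and 15 not called, where 18.8% of all genes were called. Among the 7 higher, ST14 passed the filter on low counts only through the KO libraries, where it was higher. Among the 7 lower, NES passed it mostly through the PT2385 libraries, where it was higher.

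Among keratins outside the members, KRT15, a type I keratin of basal and progenitor cells, rose in KO from 5.59 ± 0.430 to 12.8 ± 1.24 CPM (log2 1.21, edgeR adjusted p = 7.86e-05). KRT80, a type II keratin, rose from 170 to 210 CPM (log2 0.32, edgeR adjusted p = 0.00397). KRT79 fell (log2 -0.62, edgeR adjusted p = 0.0386), a call lost without KO replicate 2 or any 1 of the untreated libraries. KRT10 was at 12.6 ± 2.04 CPM in untreated cells and 12.4 ± 1.42 CPM in KO.

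Of 6 other tested filament genes, 4 fell in KO and 1 rose, where 15.4% of all tested genes were called lower and 14.7% higher. SYNM, synemin, a large partner of vimentin filaments, was at 51.7, 49.3 and 53.6 CPM in untreated cells, 60.0, 67.7 and 65.6 CPM with PT2385, and 21.7, 24.5 and 23.7 CPM in KO. It thus lay above untreated cells with PT2385 (log2 0.32, edgeR adjusted p = 0.0190, lost without PT2385 replicate 2 or untreated replicate 1 or 2) and below them in KO (log2 -1.13, edgeR adjusted p = 1.9e-06), as EPPK1 did. NEFL, the light neurofilament, fell from 238 to 151 CPM in KO (log2 -0.64, edgeR adjusted p = 5.57e-04). The lamins split, LMNB1 falling (log2 -0.39, edgeR adjusted p = 5.69e-04) and LMNA rising from 563 to 736 CPM (log2 0.40, edgeR adjusted p = 0.00107). NES, nestin, at 22 to 26 counts in untreated cells, was lower by 1.41 on the log2 scale in KO, where 1 of 3 libraries reached the low count cutoff, so that it was tested because of the untreated libraries.

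Of the plakins outside the members, MACF1, which links actin and microtubules, rose in KO from 1161 to 1459 CPM (log2 0.34, edgeR adjusted p = 5.75e-04). EVPL, envoplakin, rose from 23.5 to 37.3 CPM (log2 0.68, edgeR adjusted p = 4.9e-04). DST, dystonin, was not called in either comparison with untreated cells as tested here, but was called in both with no filter or with the replicate block, with PT2385 without PT2385 replicate 1, and in KO without KO replicate 3. It had 983, 679 and 458 CPM in the PT2385 libraries, a spread far wider than the 938 to 996 CPM of the untreated ones.

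Of 4 tested desmosomal genes outside the members 1 was called in KO, where 30.1% of all tested genes were called. PKP2, a plakophilin that binds desmoplakin, rose in KO from 3.06 ± 0.615 to 7.53 ± 1.13 CPM (log2 1.31, edgeR adjusted p = 4.64e-04). DSG2, the desmoglein of simple epithelia, was at 199 ± 5.13 CPM in untreated cells and 211 ± 20.1 CPM in KO, and PERP was at 56.7 ± 1.11 and 63.4 ± 2.15 CPM, neither called. DSC2, a desmocollin, had 7, 2 and 6 counts in untreated cells, 4, 3 and 3 with PT2385 and 0, 0 and 0 in KO, and like DSP it had no count in the KO libraries.

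Of 5 tested catenins and classical cadherins outside the members, 1 rose and 2 fell in KO, where 14.7% of all tested genes were called higher and 15.4% lower. CTNNB1, the closest relative of JUP, rose by 0.19 on the log2 scale (edgeR adjusted p = 0.0199), CDH2 fell by 0.22 (edgeR adjusted p = 0.0287), and both calls were lost in the same 4 fits as that of KRT79. CTNND1 fell by 0.26 (edgeR adjusted p = 0.00497). In the hemidesmosome, COL17A1 was higher in KO by 1.53 on the log2 scale, from at most 10 counts in an untreated library, and with 1 untreated library at the low count cutoff it was tested because of its KO libraries. PADI1, which citrullinates filaggrin among other proteins, was higher in KO by 0.85 on the log2 scale (edgeR adjusted p = 0.0104), at a mean under 100 counts per library. PKP2, NES, COL17A1, PADI1, DSC2 and ST14 had too few counts for the rule on named genes and were chosen after their values were seen.

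**Figure D4:**
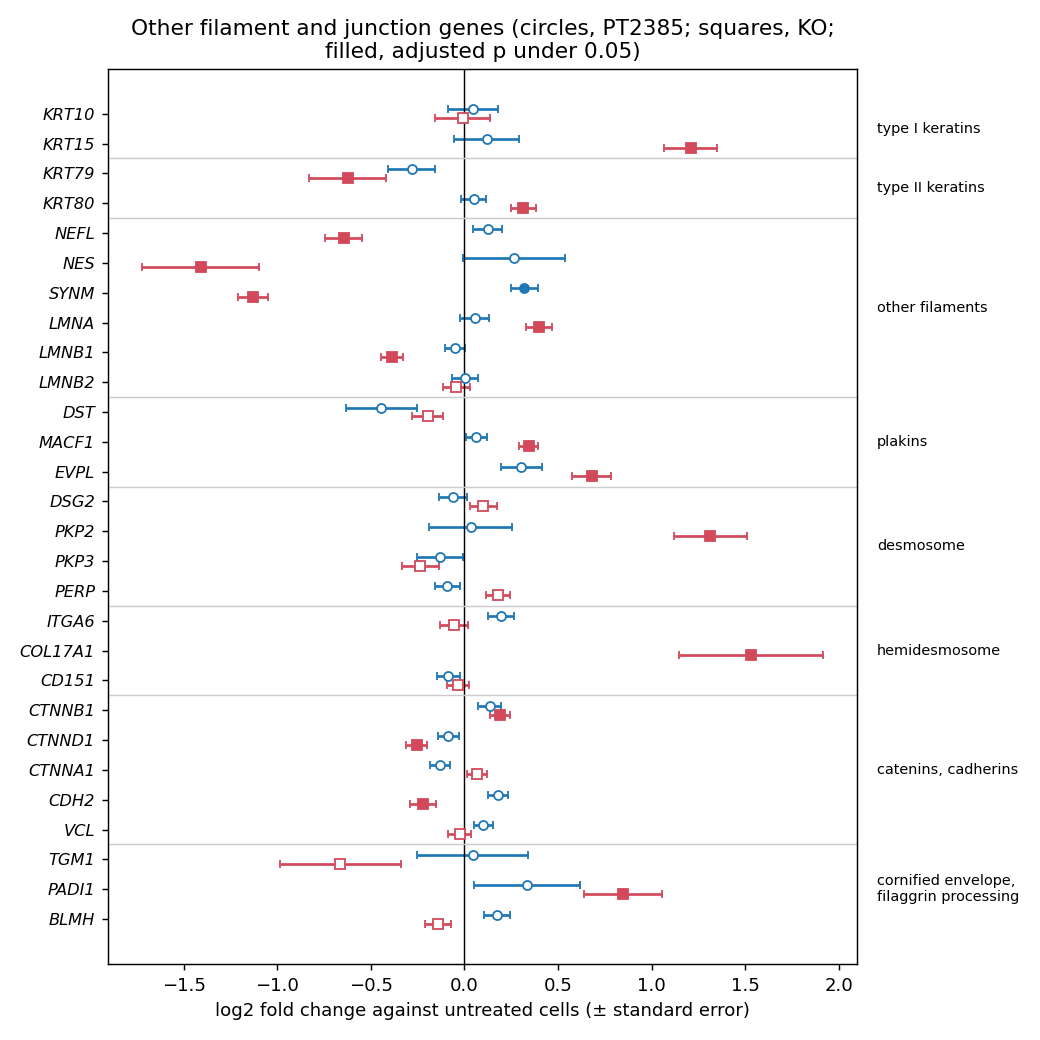
Log2 fold change against untreated cells (horizontal axis, ± SE) of the tested genes of the wider families, grouped by family, with PT2385 (circles) and in KO (squares); filled symbols have an edgeR adjusted p under 0.05. With PT2385 only SYNM is filled, whereas 16 genes are filled in KO, 9 on the right and 7 on the left. COL17A1 was not tested with PT2385, and TGM5, tested with PT2385 but not in KO, is not drawn.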

How the data were processed

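Total RNA of the 9 libraries was sequenced, and per the labels and the study's methods the reads went through FastQC, cutadapt trimming, STAR alignment to hg38 and gene-level counting by featureCounts. The authors deposited raw counts per gene without normalization, and 0 columns lacked a matching sample. The annotation release and the strand setting of counting are not given in the sources used here. A gene that overlaps another, or has near-identical copies, can therefore hold or lose reads of the other. Of 58735 identifiers, 58207 were given a symbol and position from GENCODE v44, and promoter windows came from RefSeq.

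Each pair of groups was fitted separately in edgeR 4.0.16 (R 4.3.3) with TMM scaling, filterByExpr (minimum count 10), its quasi-likelihood test, with p-values adjusted (Benjamini-Hochberg) over every gene tested and a threshold of 0.05. Standard errors were the log2 fold change over the square root of F. The steps were tested on simulated data. Total counts of 11881000 to 14730081 put the floor of 3 counts per library at 0.206 to 0.252 CPM. Alternatives were DESeq2 1.42.0 (the tool of the study), RLE or library size scaling, no filter, a replicate block, all 9 libraries in 1 model and leaving out each library. The pairing was checked as the correlation of deviations from group means over 10140 genes: same-numbered PT2385 and untreated libraries gave 0.453, 0.137 and 0.431, so they were taken as paired. The main fit held no replicate term and so left this pairing out, and results with the block are given beside it. The KO libraries did not meet this rule.

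The members and gene lists were chosen with earlier results of these data known. Named genes were the members, list genes called with a mean of at least 100 counts, EPAS1, the markers, overlapping genes and pseudogenes, and for the 3 members of widest SD the 3 genes of most similar pattern. A blood cell marker is not reported here.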

Additional observations from a re-analysis of the deposited data

Results flagged for a closer look

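Of the genes described, 6 lay on opposite sides of the untreated cells with PT2385 and in HIF2α KO, with every library of one group on one side and every library of the other on the opposite side. FLG, EPPK1 and SYNM were called in both comparisons, and CTNNA1, CDH2 and BLMH were not. FLG fell below untreated cells with PT2385 and rose above them in KO, and KO exceeded PT2385 by 1.68 on the log2 scale. EPPK1 was higher with PT2385 and lower in KO, with a log2 difference of -3.69 between KO and PT2385. SYNM, which was not a member, was likewise higher with PT2385 and lower in KO, and KO differed from PT2385 by -1.47 on the log2 scale. The differences were smaller for CDH2 (-0.42) and BLMH (-0.33), higher with PT2385 and lower in KO, and for CTNNA1 (0.18), lower with PT2385 and higher in KO. No test is given here for any of the 6, since this pattern picked them out, and FLG and EPPK1 were also chosen with results of these libraries known.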

How the results depend on the processing

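Genes called upon PT2385 treatment numbered 1162, 2305 with the replicate block, and 574 to 1451 when each library was left out, lowest without PT2385 replicate 2 (574), untreated replicate 2 (581) or untreated replicate 1 (654), and 728 without untreated replicate 3. Members called with PT2385 numbered 4, and 6 with the replicate block. Their number ranged from 1 to 4 when a library was left out. It was 2 without PT2385 replicate 2 or untreated replicate 1, and 1 without untreated replicate 2. List genes called with PT2385, recomputed under settings added after the data were seen, numbered 1, with 2 under library size scaling, 2 with no filter, 5 with the block and 0 to 2 when a library was left out. In KO against untreated cells the 4566 genes and 6 members became 3344 to 5094 and 6 to 8, and with no filter all 10 members were called. Between KO and PT2385 the 2897 genes became 1836 to 3190, lowest without PT2385 replicate 2, the 6 members 4 to 6 and the 14 list genes 9 to 14, with 9 without KO replicate 1 or PT2385 replicate 2. The sign of PLEC with PT2385 turned under library size scaling (0.011) and ranged from -0.070 to 0.061 when a library was left out, and that of VIM between KO and PT2385 ranged from -0.089 to 0.0054. With the longest transcript as length, untreated levels were 1780 CPM per kb for VIM, 217 for PLEC, 142 for KRT8, 102 for KRT19, 77.4 for KRT18, 0.341 for JUP, 0.203 for DSP and 0.103 for KRT7. The KO libraries were not taken as paired with the others, since same-numbered replicate 2 correlated at 0.0560 with untreated cells and 0.0915 with PT2385, and not every library correlated best with its own number. With the replicate block 8 members were called in each comparison with KO, VIM and PLEC in addition against untreated cells and KRT19 and PLEC against PT2385, and genes called went to 5501 and 3783. DESeq2 called 1072, 3972 and 2612 genes in the order of the comparisons. The cause of these shifts was not tested. Depth limits what can be said of KRT7, DSP, EPPK1 and JUP.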

Other observations

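For the 3 members of widest spread over the 9 libraries, the genes with the most similar pattern were sought among 10140 genes with a mean of at least 100 counts, by the root-mean-square difference of centred log2 CPM. DSP varied most (SD 1.87 on the log2 scale) and its nearest genes were EPAS1 itself (difference 0.163), the tight junction associated gene AMOTL1 (0.319) and the tricellular junction receptor LSR (0.343). AMOTL1 was at 47.4, 51.1 and 5.30 CPM and LSR at 12.7, 12.5 and 1.23 CPM in untreated, PT2385 and KO cells. The DSP distances depend on the prior count of 2, since DSP was at 0 in KO. EPPK1 (SD 1.58) lay nearest to LSR (0.478), AMOTL1 (0.506) and the actin bundler LCP1 (0.515), and LCP1 was at 38.7, 33.8 and 4.94 CPM in the same order. JUP (SD 0.879) lay nearest to SLIT2 (0.151), STOM (0.167) and COL6A1 (0.169). STOM was at 24.2, 30.2 and 79.5 CPM and COL6A1 at 18.3, 28.6 and 89.7 CPM in the same order. The points compared are 9 libraries in 3 groups, and nothing about shared control is read from them.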
